A study of Mus musculus with 19 samples.

Results

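Lens RNA of embryonic day 12.5 (E12.5, the day of the plug counted as E0.5) was compared with RNA of the whole embryonic body, to describe which genes of primary fibre elongation beyond the crystallins stood above or below the body. The members were chosen by sample title: 3 arrays of E12.5 lens and the 4 whole-body arrays made for the lens, 7 of the 19 arrays of the series. All embryos were wild-type mice of the ICR strain, with no transgene or treatment. The lenses were E12.5 tissue dissected in buffer, and each body array carries the stage range E10.5 to E12.5, so the body was not matched to the lens day by day. The lens has 2 further groups in the series, E10.5 and E11.5 (3 arrays each), and the remaining 6 arrays hold E13.5 tooth germ and its whole bodies (E11.5 to E13.5). Nothing in the labels tells separate litters from pools or repeat extractions. The p-values thus measure the spread between arrays, which may be technical. The genes were taken from 11 lists of fibre biology with 261 genes, of which 242 had a probe set (a group of short probes) naming that gene alone and 236 were bright enough to test.

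The lens vesicle is made of surface ectoderm that has folded in and closed. Cells of its back wall leave the cell cycle and lengthen until they fill the cavity, which forms the primary fibres, while the cells of the front wall remain a dividing epithelium. An elongating fibre adds membrane with water channels, gap junctions and adhesion proteins, lays a spectrin-actin network under it, builds the lens-specific beaded filament, and much later loses its nucleus and organelles. Fibroblast growth factor signalling from the eye chamber is known to start this programme, and Prox1, Sox1, Maf and Hsf4 are among its transcription factors.

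Promoter sequence is shown for 3 of the genes highest over the body, Lim2, Capn3 and Prox1, because members that stand high together invite a look at the letters before their start sites. RefSeq promoter windows on assembly GRCm38.p6 (250 bases before to 50 after a start, 300 in all) were searched on both strands for motif letters. These were TGCTGAC (part of a Maf recognition element), ACAATG (a Sox site), GAANNTTC (heat shock element) and the TATA box letters TATAAA. The lines give the 250 bases before the start, 5′ to 3′ on the gene's strand, and capitals mark the letters of a motif on either strand. In Lim2 (chr7:43429849-43430098, plus strand) the capitals are Sox letters on the opposite strand, 69 bases before the start. In the second of the Capn3 starts (chr2:120476659-120476908, plus strand, inside the gene) they are Sox letters on the opposite strand, 206 bases before it, and Maf letters on the same strand, 92 bases before it. In Prox1 (chr1:190170828-190171077, minus strand) they are TATA letters on the opposite strand, 34 bases before the start.
Lim2: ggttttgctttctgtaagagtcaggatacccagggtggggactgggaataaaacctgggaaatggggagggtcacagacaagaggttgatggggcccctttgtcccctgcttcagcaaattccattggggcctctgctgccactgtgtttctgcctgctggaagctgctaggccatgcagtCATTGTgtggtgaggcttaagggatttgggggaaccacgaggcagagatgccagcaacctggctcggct
Capn3: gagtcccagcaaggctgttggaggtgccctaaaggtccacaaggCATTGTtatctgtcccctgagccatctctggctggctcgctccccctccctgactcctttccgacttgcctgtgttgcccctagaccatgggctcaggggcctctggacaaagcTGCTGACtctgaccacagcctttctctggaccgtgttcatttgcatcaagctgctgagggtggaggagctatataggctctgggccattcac
Prox1: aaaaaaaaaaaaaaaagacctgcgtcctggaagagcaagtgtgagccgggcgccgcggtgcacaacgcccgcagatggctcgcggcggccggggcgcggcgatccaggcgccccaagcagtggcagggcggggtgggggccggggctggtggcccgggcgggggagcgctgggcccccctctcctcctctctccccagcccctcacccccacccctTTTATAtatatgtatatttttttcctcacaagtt

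Over the 66 promoters found for 45 of the 58 list genes that were at least 2-fold higher in lens, the Maf letters occurred in 4.55%, against 4.67% of all 32851 promoters. The Sox letters occurred in 7.58% against 12.6%, the heat shock letters in 6.06% against 7.86%, and the TATA letters in 9.09% against 13.6%. None of the 4 motifs thus had a larger share than among all promoters. A match of letters is a description and not a binding site.

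Values are log2 of the deposited linear signals. The 27 bacterial control sets without a matching RNA in the sample reached a 95th percentile of 4.71, which serves here as the level of no measured signal. Correlations between arrays ran from 0.984 to 0.994 within E12.5 lens and from 0.987 to 0.995 within body. The control probe sets that compare the 3′ with the 5′ end of the actin transcript differed by 0.35 to 0.46 in E12.5 lens and by 0.21 to 0.38 in body. Bacterial control signals split the lens-series arrays into a high and a low set. The high set held E10.5 lens replicates 1 and 2, E11.5 and E12.5 lens replicate 1, and body replicates 2 and 3. The low set held E10.5 lens replicate 3, E11.5 and E12.5 lens replicates 2 and 3, and body replicates 1 and 4. E12.5 lens was compared again within the sets with body, E11.5 lens and tooth germ, but not with E10.5 lens. The median difference over the 13320 genes tested was -0.05. Of the earlier lenses, E10.5 replicate 3 stood near E12.5 in some fibre and crystallin genes: Cryga was at 4.50, 4.49 and 13.73 on the E10.5 arrays and Bfsp1 at 5.51, 5.44 and 10.66. E11.5 replicate 1 stood below the other E11.5 arrays, with Cryga at 5.85, 12.32 and 10.07. Both stood alone of their stage in their control set, so a stage-like level and the set cannot be told apart in them. Both enter the spread of the fit. Against the body, 81 fibre genes were higher and 59 lower without E10.5 replicate 3, and 84 and 69 without E11.5 replicate 1.

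Lens markers were high and markers of nerve, muscle and surface ectoderm were low. The 10 lens markers were all higher in E12.5 lens, with a mean log2 signal of 12.55 to 12.64 on the lens arrays and 5.49 to 5.89 on the body arrays. Crystallins were among the genes furthest above the body, Cryaa being at 14.39 in lens and 5.02 in body and Cryba1 at 14.45 and 4.72. Many of these genes had body values about at the level of no measured signal, so no order among them is given. Of the 10 neuronal markers all were lower (mean log2 signal 4.60 to 4.77 in lens and 9.79 to 10.10 in body), and all 9 muscle markers were lower (4.66 to 4.91 against 9.01 to 9.12), both groups lying about at the level of no measured signal in lens. All 9 markers of surface ectoderm, the tissue from which the lens derives, were lower too (5.04 to 5.27 against 7.40 to 7.59). Among the genes furthest below the body were Afp, Actc1, Fabp7, Alb and Nefl, genes of liver or yolk sac, muscle and the nervous system. All but Actc1 (5.14) were below the level of no measured signal in lens, so these have no order either.

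Some other cell types kept signal in the lens arrays. Of 10 mesenchyme markers 9 were lower, yet Col3a1 was at 10.57 and Lum at 9.71 in lens, and Pdgfra, which lens epithelium also expresses, was at 11.03 in lens and 10.98 in body. Of 8 endothelial markers 2 were lower and 6 were not called, and their mean log2 signal was 7.09 to 7.13 in lens and 7.23 to 7.36 in body. Of 8 macrophage markers 3 were higher in lens (Cx3cr1, Tyrobp and C1qa), and the 3 pigment cell markers bright enough to test were higher (Pmel, Dct and Mitf) while Tyr, Tyrp1 and Mlana were too dim. Of 6 erythroid markers 5 were lower and 1, the embryonic globin Hbb-y, was not called (14.18 in lens and 14.31 in body); the mean log2 signal of these markers was 9.76 to 10.14 in lens and 11.53 to 11.72 in body. Among retinal markers Sfrp2 was at 12.68 in lens, Rax at 5.45 and Lhx2 at 5.80, and 3 were higher and 3 lower. The part of these cells in the results below was not tested. In dissected tissue fewer cells of a type and less RNA per cell cannot be told apart.

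**Figure D1:**
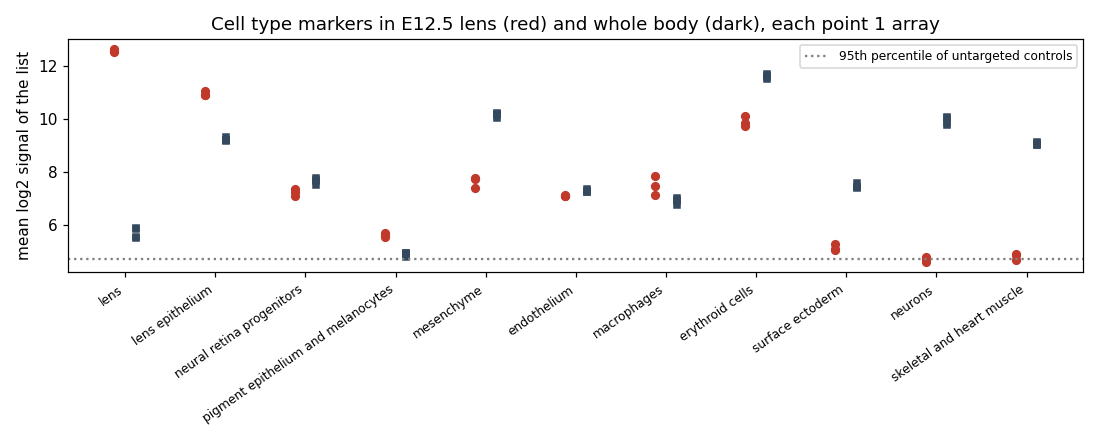
Mean log2 signal over the measured markers of each cell type (vertical axis) on the 3 arrays of E12.5 lens (red circles) and the 4 arrays of whole body (dark squares), with a dotted line at 4.71, the 95th percentile of untargeted controls. Neuronal and muscle markers lie near the dotted line in lens, while endothelial markers lie close together in both tissues.

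Across all fibre lists, 81 of the 236 tested genes were higher in E12.5 lens than in body and 61 were lower, at an adjusted p under 0.05 (limma, Benjamini-Hochberg over all genes). Of all genes tested, 2215 (16.6%) were called higher and 3559 (26.7%) lower, and 3161 and 2876 once each array was centred on the median of the tested genes. By at least 2-fold, 58 members were higher and 38 lower, against 5.73% and 12.5% of all genes. The 3 lens arrays lay above all 4 body arrays in 83 members and below them in 72, against 19.6% and 29.5% of all genes. The median difference over the 236 was 0.03, so the fibre genes split rather than moved as a block. The lists that stood highest were the transcription factors, with a median of 2.10, and the membrane genes, with 1.91. The microtubule genes stood lowest, at -0.43. Centring each array on the median of the tested genes added 0.14 to the differences and gave 92 members higher and 50 lower. List medians between -0.14 and 0 (actin and myosin, receptor signalling, late fibre genes) change sign under that centring, while no called member did. It ended 11 calls, among them those of Msn, Bmpr2, Tmod2 and Tubb5, and added 11, among them Bmp7 (0.40) and Cdkn1c.

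**Figure D2:**
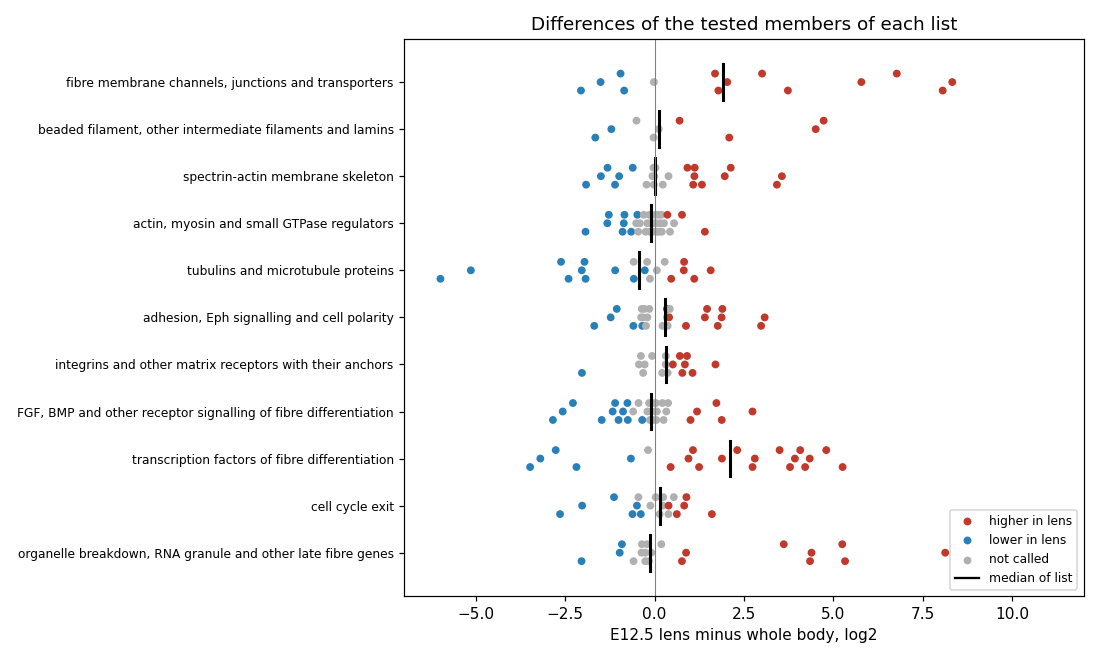
E12.5 lens minus whole body in log2 (horizontal axis) for every tested member of the 11 fibre lists, each point 1 gene, red where called higher, blue where called lower and grey where not called, with the list median as a black bar. The transcription factor list has its median at 2.10, while the actin and myosin list clusters near 0.

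Genes of the fibre membrane were among the members furthest above the body. Of 14 tested genes for channels, junctions and transporters, 9 were higher (64.3%), each by at least 2-fold, and 4 were lower (28.6%), beside 16.6% and 26.7% of all genes. Gja3 (chr14:57034460-57058030), which encodes connexin 46 of fibre gap junctions, was at 12.05, 12.32 and 12.39 on the lens arrays and at 3.99, 3.67, 4.09 and 3.94 on the body arrays. Mip (chr10:128225810-128231812), the water channel aquaporin 0 of fibre membranes, was at 12.75, 12.66 and 12.67 in lens and between 4.32 and 4.82 in body. Both genes were bright in every lens array and had body values about at the level of no measured signal, so only bounds hold. With the probe sets used, Gja3 was at least 187-fold and Mip at least 248-fold higher in lens. The other probe set of Gja3 gave a log2 difference of 5.995 and that of Mip 9.69, both called higher. With the probe sets used the log2 differences were 8.33 ± 0.39 (SE) for Gja3 and 8.06 ± 0.38 for Mip (limma, adjusted p = 2.4e-12 and 2.1e-12).

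Lim2 (chr7:43430099-43435996), which encodes the fibre membrane protein MP20, was at 12.71, 13.12 and 13.16 in lens and between 5.95 and 6.40 in body, a difference of 6.78 ± 0.71. Trpm3, a calcium-permeable channel gene, was at 9.83 to 10.51 in lens and 4.05 to 4.61 in body, at least 43.7-fold higher with its brightest probe set. Its other probe sets gave log2 differences of 1.56 to 5.04, all called higher, and the mean of all gave 4.06. Slc16a12, a monocarboxylate family transporter of creatine, was at 8.22, 9.37 and 9.34 in lens and at most 5.56 in body, where the first lens array lay lowest but still above every body array. Nrcam, a cell adhesion molecule that ties to ankyrin, was 8.0-fold higher (3.01 ± 0.59), and Slc2a1, the glucose transporter GLUT1, 3.2-fold higher (1.69 ± 0.19). Gprc5b and Cadm1 were higher by 2.03 ± 0.22 and 1.79 ± 0.14.

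The 4 lower members of the membrane list had measured signal in body, as did higher members such as Slc2a1 (body mean 10.97) and Cadm1 (9.44). Gja1, connexin 43 of the lens epithelium and of many embryonic cells, was at 10.84 to 11.14 in lens and 11.69 to 12.11 in body, lower by a small but non-overlapping margin (-0.85 ± 0.14). Aqp1, the water channel of red cells and epithelia, was at the level of no measured signal in lens (mean 4.67) and at 6.73 in body, at least 4.04-fold lower. Mpp1, a red cell membrane scaffold gene, and Atp1b1, a subunit of the sodium pump, were lower by 1.51 and 0.95. Kcnj13 was at 5.12 in lens and 5.14 in body. Aqp5 and Slc7a11 were too dim to test.

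**Figure D3:**
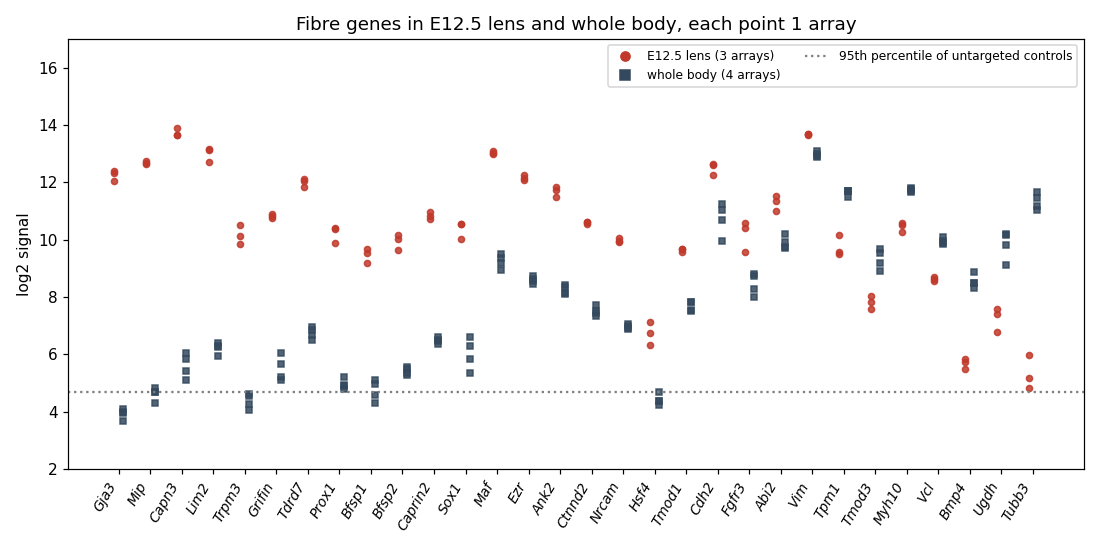
Log2 signal (vertical axis) of 30 fibre genes on each of the 3 arrays of E12.5 lens (red circles) and the 4 arrays of whole body (dark squares), with a dotted line at 4.71, the 95th percentile of untargeted controls. The lens points of Gja3, Mip and Capn3 lie above 12 while their body points lie between 3.67 and 6.03, and for Tubb3 the order is turned.

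Both genes of the beaded filament, the intermediate filament found in lens fibres alone, were high in E12.5 lens. Bfsp2 (chr9:103424924-103480405), phakinin, was at 10.16, 10.03 and 9.65 in lens and 5.30 to 5.58 in body, 22.8-fold higher (4.51 ± 0.21, limma, adjusted p = 2.5e-12). Bfsp1 (chr2:143826528-143915219), filensin, was at 9.21, 9.53 and 9.66 in lens and 4.29 to 5.11 in body, 26.5-fold higher with a wider error (4.73 ± 0.77). Vim, the filament protein that fibres share with mesenchyme, was among the brightest members in both tissues, at 13.65 to 13.68 in lens and 12.88 to 13.09 in body, 1.6-fold higher. Plec, a linker of filaments to membranes, was higher by 2.09 ± 0.15. Lamin A/C (Lmna) and lamin B1 (Lmnb1), of the sheet under the nuclear envelope, were lower by 1.66 and 1.21. For Lmna the other tested probe sets gave -1.36, called lower, and -0.15 and 0.43, not called. The mean of all its probe sets gave -0.58. Nes, nestin, was at 9.68 in lens and 9.56 in body. In this list 4 of 9 tested genes were higher (44.4%) and 2 lower (22.2%), beside 16.6% and 26.7% of all genes.

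The spectrin-actin network under the fibre membrane was split between members of the same gene families. Of 23 tested genes, 9 were higher (39.1%) and 6 lower (26.1%), beside 16.6% and 26.7% of all genes, and the median difference was 0.02. Tmod1 (chr4:46038940-46116032), tropomodulin 1, which caps the slow-growing ends of actin filaments in fibre membranes, was at 9.57, 9.67 and 9.67 in lens and 7.50 to 7.84 in body, 3.9-fold higher (1.96 ± 0.22). Tmod3, its more widely expressed relative, was at 7.83, 8.05 and 7.59 in lens and 8.90 to 9.67 in body, 2.8-fold lower (-1.50 ± 0.20). Neither gene had a lens array inside the range of the body arrays. Tmod2 was lower by 1.11 ± 0.42, a call that was lost in 10 of the alternative settings.

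Ankyrins link spectrin to membrane proteins. Ank2 (chr3:126921607-127500347), ankyrin B, was at 11.84, 11.48 and 11.73 in lens and 8.12 to 8.41 in body, 10.7-fold higher (3.42 ± 0.21, and 1.75 with the mean of its probe sets), and Ank3 was higher by 1.11 ± 0.19. Ank1, the red cell ankyrin, was lower by 1.32 ± 0.20. Ezrin (Ezr), which ties actin to the membrane, was at 12.07, 12.26 and 12.16 in lens and 8.47 to 8.75 in body, 11.8-fold higher (3.56 ± 0.14). Its other probe set gave 0.34 and was not called, and the mean of both gave 1.95. Its relative Msn, moesin, was lower by 0.61 ± 0.20 (a call that ended at -0.47 with arrays centred on the tested genes), and Rdx, radixin, was at 11.26 in lens and 11.24 in body.

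Chains of spectrin were higher as well. Sptan1, the alpha chain, was higher by 1.33 ± 0.13 and Sptbn1, a beta chain, by 0.92 ± 0.14. Sptb, the red cell beta chain, was higher by 1.12, with 3.28 from its other probe set, and Epb41l2, a protein 4.1 gene, by 2.13 ± 0.14. Add2, beta adducin, was at 8.56, 9.10 and 9.09 in lens and 7.43 to 8.22 in body (1.08 ± 0.42, limma, adjusted p = 0.046), a call that ended when arrays were centred on their medians, while Add1 and Add3 differed by -0.01 and -0.03. The other tested probe sets of Add2 gave -0.02, 0.09 and 0.11, not called, and 0.54, called higher. Of 4 tested tropomyosins, which lie along actin filaments, 2 were lower. Tpm1 was at 10.15, 9.56 and 9.49 in lens and 11.65 ± 0.10 (SD, n = 4) in body, 3.8-fold lower (-1.92 ± 0.17), and Tpm4 was lower by 0.99 ± 0.13. Tpm2 and Tpm3 were not called (-0.02 and -0.22), and 1 of the other probe sets of Tpm3 gave 2.71, called higher. With the tooth-series bodies as control the sign of Tpm1 turned (2.76), and with all 7 bodies it was 0.09.

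**Figure D4:**
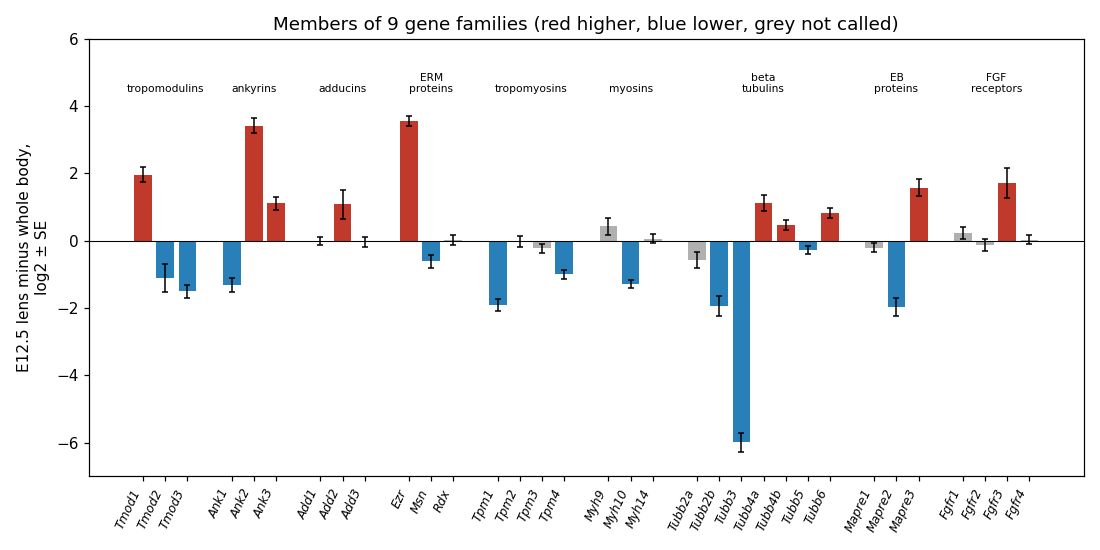
E12.5 lens minus whole body in log2 (bars, with the SE of the fit) for the tested members of 9 cytoskeletal and receptor families, red where called higher, blue where called lower and grey where not called. Within the tropomodulins, ankyrins and ezrin-radixin-moesin (ERM) proteins, 1 member or more stands above 0 and another below.

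Set against each other on the same array, members of a family changed balance between the tissues. The pairs were chosen after their values were seen and carry no test. The log2 of Tmod1 minus that of Tmod3 was 1.62 to 2.09 in lens and -2.17 to -1.06 in body. Ezr minus Msn was 2.59 to 2.74 in lens and -1.81 to -1.23 in body, and Ank2 minus Ank1 was 4.26 to 4.49 in lens and -0.79 to 0.22 in body. Because different probes differ in brightness, only the shift between tissues can be read, and with the brightest probe set of each gene it was 3.47 for the tropomodulins, 4.17 for ezrin against moesin and 4.74 for the ankyrins.

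Of 34 tested genes of the contractile and small GTPase machinery, 3 were higher (8.82%) and 8 lower (23.5%), beside 16.6% and 26.7% of all genes, and 23 were not called. The actins Actb and Actg1 were at 13.84 and 13.52 in lens and 14.04 and 13.67 in body, and Rhoa was at 11.20 in lens and 11.10 in body. Abi2, a subunit of the WAVE complex that drives branched actin growth, was the highest, at 11.29 ± 0.27 (SD, n = 3) in lens and 9.71 to 10.18 in body, 2.7-fold higher (1.41 ± 0.20). Its relative Abi1 was at 8.82 and 9.12. Myl6 and Rac1 were higher by 0.77 and 0.36, the call of Rac1 being lost in 8 alternative settings.

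The lower members of the contractile list included genes of stress fibres and their anchors. Myl9, a regulatory myosin light chain of smooth muscle, was 3.8-fold lower, at 8.28 to 9.11 in lens and 10.48 to 10.79 in body. Vcl, vinculin, was at 8.70, 8.62 and 8.54 in lens and 9.83 to 10.11 in body, 2.5-fold lower (-1.32 ± 0.13). Myh10, the non-muscle myosin IIB heavy chain, was 2.4-fold lower (-1.28 ± 0.12), while Myh9, myosin IIA, was at 10.79 in lens and 10.36 in body. Cfl1, cofilin, was lower by 0.90 ± 0.11. All 9 muscle markers and 9 of 10 mesenchyme markers were lower in the same arrays, and their part in these differences was not tested.

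Of 20 tested tubulin and microtubule genes, 5 were higher and 10 lower, both larger shares than the 16.6% and 26.7% of all genes. Tubb3, a beta tubulin of neurons, was at 5.34 ± 0.60 (SD, n = 3) in lens and 11.02 to 11.65 in body, 63.6-fold lower (-5.99 ± 0.29). Map2, of dendrites, was lower by 5.14 ± 0.19 (2.94 with the mean of its probe sets) and Mapt, which encodes tau, by 2.41 ± 0.17. The neuronal markers were about at the level of no measured signal in lens, as given above. Tuba4a was lower by 2.62. Higher members were Mapre3, an end-binding protein of growing microtubules (7.05 to 7.29 in lens and 5.23 to 5.97 in body, 3.0-fold), Tubb4a (1.11 ± 0.24), Tubb6 (0.83 ± 0.15), Map4 (0.82 ± 0.16) and Tubb4b (0.47 ± 0.15). The most abundant signals of the list, Tuba1a and Tubb5, were at 13.46 and 13.11 in lens and 13.59 and 13.39 in body.

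Of 26 tested genes of cell adhesion and polarity 10 were higher (38.5%) and 5 lower (19.2%), beside 16.6% and 26.7% of all genes. Ctnnd2, a delta catenin that binds cadherin tails, was at 10.61, 10.53 and 10.60 in lens and 7.35 to 7.72 in body, 8.5-fold higher (3.08 ± 0.13). Cdh1, E-cadherin of the lens epithelium, was at 10.20, 10.46 and 10.48 in lens and 7.22 to 7.67 in body, 7.9-fold higher (2.98 ± 0.16). Cdh2, N-cadherin, which fibres keep, was at 12.26, 12.61 and 12.64 in lens and more scattered in body, from 9.96 to 11.25 (1.77 ± 0.24). Arvcf, another catenin of this family, was higher by 1.90 ± 0.17. Epha2, a receptor needed for ordered fibre packing, was at 7.68, 8.59 and 8.34 in lens and 6.26 to 6.38 in body, 3.7-fold higher.

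Genes of planar polarity differed in direction. Celsr1 was higher by 1.47 ± 0.19, while Vangl2 and Prickle1 were lower by 1.23 and 1.06. Ncam1 was lower by 1.69 ± 0.21 (-0.49 with the mean of its probe sets). Its other tested probe sets gave -1.54, called lower, and -0.81, -0.03 and 0.27, not called. Ctnnb1, beta catenin, was at 13.01 in lens and 13.30 in body and was not called. For Ctnna1 the probe set used gave -0.34, called lower, while another probe set of the gene gave 0.66, called higher, so its direction was not settled. It was the 1 opposed case among 210 further probe sets of called members, of which 154 gave the same call and 55 none. With the mean of all probe sets of a gene in place of the brightest, 27 of 113 named fibre genes moved by over 1.5 times, 25 of them towards a smaller difference and 2 towards a larger one, Mip and, with its sign turned, Tpm3.

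Of 17 tested genes for integrins, other matrix receptors and their anchors, 7 were higher (41.2%) and 1 lower (5.88%), beside 16.6% and 26.7% of all genes. Itga6, the laminin receptor chain, was at 10.02, 9.92 and 9.90 in lens and 8.11 to 8.39 in body, 3.3-fold higher (1.70 ± 0.13). Itgav, Itga3 and Itga2 were higher by 1.06, 0.91 and 0.85, and the integrin-linked anchors Parva and Ilk by 0.78 and 0.71. Their shared partner Itgb1 was at 10.60 in lens and 10.29 in body and was not called. Cd44, a hyaluronan receptor, was at 4.33 to 4.78 in lens and 6.03 to 7.01 in body, at least 3.54-fold lower with its brightest probe set. Its other probe sets gave log2 differences of -2.24 and -1.29, both called lower.

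Of 32 tested genes of growth factor signalling 5 were higher (15.6%) and 11 lower (34.4%), beside 16.6% and 26.7% of all genes. Among receptors, Fgfr3 (chr5:33721724-33737068) was at 9.57, 10.59 and 10.39 in lens and 8.02 to 8.81 in body, 3.3-fold higher (1.73 ± 0.44, limma, adjusted p = 0.0036). Fgfr1, Fgfr2 and Fgfr4 differed by 0.22, -0.13 and 0.04, none of them called. Among targets of the pathway, Etv5 was 3.7-fold higher (1.88 ± 0.31) and Spry1, a feedback inhibitor, was higher by 1.19 ± 0.24, while Etv4 and Dusp6 were not called (-0.09 and -0.45). The ligands Fgf1 and Fgf2 were too dim to test.

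Jag1, a Notch ligand of the differentiating lens, was at 11.83, 11.60 and 11.47 in lens and 8.76 to 9.26 in body, 6.7-fold higher (2.74 ± 0.15). The Notch effector Rbpj and the receptor Notch1 were lower, by 1.48 and 0.76. In the bone morphogenetic protein pathway the called members were lower, except that Bmp7 (0.25, not called) became higher with arrays centred on the tested genes: the ligand Bmp4 was at 5.84, 5.75 and 5.50 in lens and 8.30 to 8.87 in body, 7.2-fold lower (-2.84 ± 0.19), the receptors Bmpr1b, Acvr1, Bmpr1a and Bmpr2 were lower by 2.28, 1.17, 0.75 and 0.35, with Bmpr2 no longer called under that centring, and the mediators Smad1 and Smad5 by 1.10 and 1.01. The receptor values are those of the brightest probe set of each gene. None of the other tested probe sets of Bmpr1a (-0.47 to 0.05) and Bmpr1b (-0.40) was called. Those of Acvr1 gave -0.54, called lower, and 0.04, not called, and that of Bmpr2 gave -0.64, called lower. Ugdh, which makes the sugar needed for heparan sulphate, was at 6.79, 7.58 and 7.40 in lens and 9.13 to 10.18 in body, 5.9-fold lower.

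Transcription factors gave the highest share, 16 of 22 tested (72.7%), with 5 lower (22.7%), beside 16.6% and 26.7% of all genes. Prox1 (chr1:190118035-190170827), which drives fibre elongation and exit from the cycle, was at 10.36, 10.40 and 9.89 in lens and 4.79 to 5.22 in body, 38.3-fold higher (5.26 ± 0.18). Sox1, needed for expression of gamma crystallins, was at 10.01, 10.53 and 10.54 in lens and 5.35 to 6.60 in body, 20.3-fold higher. Maf, an activator of crystallin genes, was the brightest of the list in lens, at 13.00, 13.09 and 13.02, and 8.95 to 9.50 in body, 13.8-fold higher. Hmx1, Pitx3 and Foxe3 were higher by 4.80, 4.21 and 4.08, the last being a factor of the epithelium.

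Hsf4, the heat shock factor of later fibre maturation, was modest in level: 7.11, 6.74 and 6.34 in lens against 4.22 to 4.69 in body, at least 4.07-fold higher. On the lower side, Sox11 was at 8.74, 8.50 and 8.42 in lens and 11.88 to 12.18 in body, 11.2-fold lower (-3.48 ± 0.12). Nfib, Nfia and Klf4 were lower by 3.20, 2.77 and 2.19. Mafk was not called, at 7.59 in lens and 7.77 in body.

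Of 19 tested genes of cell cycle exit 5 were higher (26.3%) and 6 lower (31.6%), beside 16.6% and 26.7% of all genes. The inhibitor Cdkn1c, p57, which marks cells of the back wall as they stop dividing, was at 12.70, 12.76 and 12.61 in lens and 12.17 to 12.44 in body, a difference of 0.39 ± 0.16 that was not called (limma, adjusted p = 0.062). Its 3 lens arrays lay above the 4 body arrays, and with arrays centred on the tested genes the difference was 0.53 and called. Cdkn1b, p27, was at 9.60 to 10.37 in lens and 8.51 to 9.90 in body, overlapping groups, and its call (0.89 ± 0.35, limma, adjusted p = 0.044) was lost in 6 settings. E2f5, a repressor of cycle genes, was 3.0-fold higher (1.60 ± 0.15), and the cyclins Ccnd2 and Ccnd1 were higher by 0.83 and 0.62. Gas2 and Gas1, named for growth arrest, were lower by 2.64 and 2.03, and Rbl1, p107, by 1.13.

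The list of organelle breakdown, RNA granule and other late fibre genes held both some of the largest differences and many members at body level. Capn3 (chr2:120463593-120504919), a calpain protease with a lens form made from its own first exon, was at 13.65, 13.66 and 13.89 in lens and 5.12 to 6.03 in body, 280-fold higher (8.13 ± 0.27, limma, adjusted p = 2e-14). Grifin, a lens galectin-related protein gene, was at 10.83, 10.77 and 10.91 in lens and 5.11 to 6.04 in body, 40.2-fold higher. Tdrd7 (chr4:45965027-46034766), a Tudor protein of RNA granules whose loss causes cataract, was at 12.11, 11.84 and 12.05 in lens and 6.50 to 6.97 in body, 38.1-fold higher (5.25, and 3.56 with the mean of its probe sets).

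Further RNA-binding protein genes stood high, with Caprin2 at 10.74 to 10.96 in lens and 6.35 to 6.61 in body (20.4-fold) and Rbm24 higher by 4.39 ± 0.39. Plaat3, a phospholipase that breaks organelle membranes down in fibres, was at 10.60, 10.53 and 10.48 in lens and 6.68 to 7.13 in body, 12.2-fold higher. Celf1, an RNA-binding regulator, was higher by 0.88 ± 0.13 with its brightest probe set and by 1.77 to 4.05 with the other 4. Dnase2b, the DNase that later clears the nucleus, was at 3.91 to 4.26 in lens, below the level of no measured signal, and Birc7 was at 6.16 in lens and 5.97 in body. Hspb1, a small heat shock protein gene, Casp6 and Hopx were lower by 2.04, 0.98 and 0.91. Of 20 tested genes 8 were higher (40.0%) and 3 lower (15.0%), beside 16.6% and 26.7% of all genes. The autophagy and membrane trafficking genes Atg5, Pik3c3, Chmp4b and Vps4b were not called. Bnip3l and Lgsn were not analysed here.

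The order in time within the lens was read from E12.5 minus E11.5, where the body arrays cancel. Of the 236 fibre genes 30 rose and 9 fell between these days, against 3.02% and 3.45% of all genes. Tmod1 rose most clearly, from 6.02 ± 0.34 (SD, n = 3) at E10.5 and 6.71 ± 0.59 at E11.5 to 9.64 ± 0.06 at E12.5, which is 2.93 ± 0.24 (SE) in the last day (limma, adjusted p = 1.7e-06). At E10.5 and E11.5 its mean lay below the body (7.67) and at E12.5 above it. Nrcam was at 4.36, 4.99 and 7.63 on the E10.5 arrays, at 5.54, 8.45 and 7.79 on the E11.5 arrays and at 9.97 ± 0.08 (SD, n = 3) at E12.5. Its body mean was 6.96, so the arrays of both earlier stages lay on either side of it, while every E12.5 array lay above the body. Fgfr3 was likewise scattered before E12.5, with 6.45, 6.69 and 8.47 at E10.5 and 7.20, 9.27 and 8.90 at E11.5, around a body mean of 8.45. Add2 was below the body mean of 7.84 on every E10.5 and E11.5 array (at most 7.78) and above it on every E12.5 array (at least 8.56). That holds for its brightest probe set, while most of its other probe sets were not called against the body at E12.5, as given above.

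The membrane skeleton supplied 7 of the 30, Tmod1, Add2, Dmtn, Sptbn1, Ank2, Epb41l2 and Sptan1. Sptbn1 rose by 1.22 ± 0.15 and Ank2 by 1.02 ± 0.23. The late fibre list supplied 5: Caprin2 (2.17 ± 0.50), Plaat3 (1.98 ± 0.32), Tdrd7 (1.98 ± 0.32), Capn3 (1.79 ± 0.29) and Grifin (1.51 ± 0.33). Mip rose by 2.71 ± 0.40 and Bfsp2 by 2.08 ± 0.23, whereas Gja3 (1.30, limma, adjusted p = 0.079), Lim2 (1.93, adjusted p = 0.17) and Bfsp1 (2.64, adjusted p = 0.068) did not pass the threshold. Tubb2a rose by 1.86 ± 0.25 although it was not called against the body.

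Of 22 tested transcription factors 1 rose in that day, Hsf4 (1.59 ± 0.21), and 1 fell, Sox11 (by 1.36 ± 0.13), a share of 4.55% each way beside the 3.02% and 3.45% of all genes. Prox1, Maf and Sox1 differed by 0.12, 0.41 and 0.52, none of them called. Trpm3 and Cdh1, high over the body at E12.5, differed by -0.34 and -0.38 from E11.5. Among the members that fell were Tpm1 (-0.83 ± 0.19), Tpm4, Myh10, Stmn1, Gas1, Hes1, Lmnb2 and Psip1. These counts were less firm than those against the body: without E11.5 replicate 1 they were 20 and 7, without E12.5 lens replicate 2 they were 19 and 5, without replicate 3 they were 17 and 3, with only the 6 arrays of the contrast 12 and 1, and with the bacterial control set as a block 45 and 14. Between E12.5 and E10.5 63 fibre genes were higher and 33 lower at E12.5, against 8.91% and 13.2% of all genes, and without E10.5 replicate 3 they were 68 and 32. The bacterial control sets are unequally spread over E10.5 and E12.5 lens, and this comparison was not repeated within them.

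**Figure D5:**
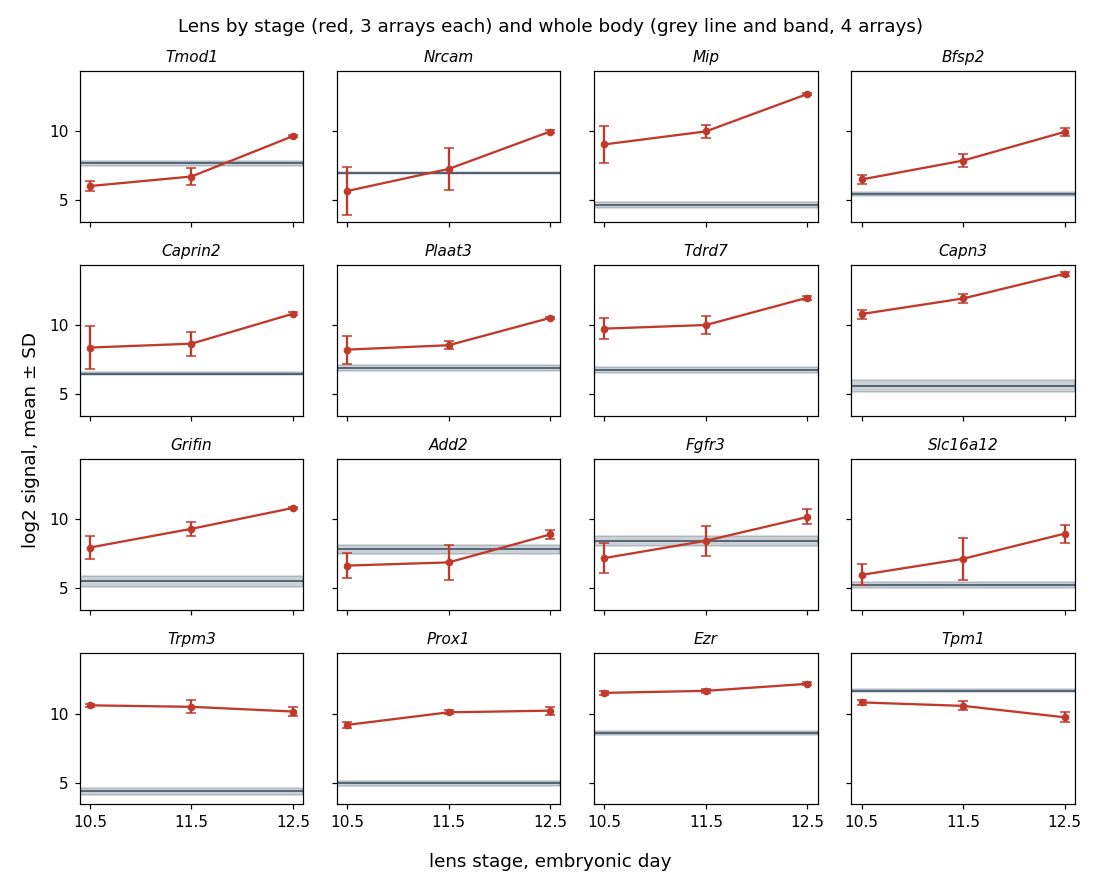
Log2 signal (vertical axis) of 16 fibre genes in lens from E10.5 to E12.5 (horizontal axis, mean and SD of 3 arrays a stage, red) and the mean and SD of the 4 whole-body arrays (grey line and band). Tmod1 climbs from 6.71 to 9.64 in the last day and crosses the body line, while Trpm3 and Prox1 are already high at E10.5.

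The lens difference was also set against that of the E13.5 tooth germ, the other organ of the series. Tooth-series arrays stood apart in quality: their 3′ to 5′ difference for actin was 4.22 to 5.05 and for Gapdh 2.82 to 4.08, against 0.21 to 0.48 and -0.10 to 0.05 in the lens series, and the part of this in the comparison was not tested. The lens difference exceeded the tooth difference in 87 fibre genes and lay below it in 53, against 19.2% and 20.4% of all genes. Tmod1 was higher than body in lens (1.96) and lower in tooth germ (-0.71 ± 0.24), and the 2 differences differed by 2.68 ± 0.32 (limma, adjusted p = 2.6e-06). In tooth germ against its own body 34 fibre genes were higher and 73 lower, against 16.6% and 25.3% of all genes. Vinculin and Bmp4, lower in lens, were higher in tooth germ, by 0.54 ± 0.14 and 1.19 ± 0.21. Cdh2, higher in lens, was lower in tooth germ by 1.49 ± 0.25.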

How the data were processed

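Total RNA of dissected mouse tissue was labelled by in vitro transcription and measured on 19 Affymetrix arrays with 45101 probe sets. The deposited intensity values are linear, from 5.4 to 25043.5, and per the submitters' processing notes the authors made them with RMA, which corrects background, equalises the arrays and sums the probes of a set; version 0.7 of affy is named with no role given. The log2 of the deposited values was taken and no further normalization was applied. No column of values was left unused (0 columns), and at most 2.04% of the values were identical between any 2 arrays. The platform annotation names 1 gene for 34945 probe sets, several for 932 and none for 9160, and 64 are controls. By Entrez ID, 34741 matched RefSeq on GRCm38.p6, which gave the coordinates. Each of 18193 genes was represented by the probe set naming it alone with the highest mean over the arrays, and 13320 above the median signal (44.1) on at least 3 arrays were tested.

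The test was limma 3.58.1 (R 4.3.3), fitted to all 19 arrays with a mean for each group and moderated, two-sided tests; p-values were adjusted by Benjamini-Hochberg for the 13320 genes and called under 0.05. The procedure was tested on simulated data. The ± after a difference is the SE of that fit. Where a group's mean lay under the control level, the fold is a bound with each of its arrays set to at least that level, and it holds for the probe set used. The number of arrays limits the precision. Members and lists were chosen with earlier results of these data known. Named genes were, per list, up to 5 called higher, up to 4 lower and 2 not called, those with an opposed probe set, the 10 highest and 5 lowest genes, up to 3 markers a cell type and 24 always named; other names were chosen after their values were seen. Deviations of same-numbered arrays of E12.5 lens and body correlated at -0.51, -0.18 and -0.26, and those of E12.5 and E11.5 lens at 0.61, 0.64 and 0.40. Same-numbered arrays of E12.5 and E11.5 lens fall in the same bacterial control set, and those of E12.5 lens and body in opposite sets. Differently numbered arrays were not correlated, so the check cannot show whether the numbers pair arrays. Alternatives covered the arrays fitted, the filter, scaling, the offset, the probe set rule, the variance model, blocks, the control arrays and each array left out.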

Additional observations from a re-analysis of the deposited data

Results flagged for a closer look

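In 30 fibre genes (12.7%) E12.5 lens lay above E11.5 lens and in 9 (3.81%) below, beside 3.02% and 3.45% of all genes. This is a tested difference of the lens excess over the body between stages, since the body arrays cancel. The lens difference from the body lay above the tooth germ difference in 87 of the 236 fibre genes and below it in 53, against 19.2% and 20.4% of all genes. The control probe sets for transcript ends stood far from those of the lens series in the tooth series, where the lowest 3′ to 5′ difference was 4.22 for actin and 2.82 for Gapdh.

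Some named genes had called differences of opposite sign in lens and tooth germ, with the difference between them tested in the same fit (limma). The lens difference minus the tooth difference was 8.87 for Capn3, 7.36 for Rbm24 and 6.94 for Tdrd7 among late fibre genes. It was 7.29 for Sox1, 7.11 for Prox1 and 6.0 for Hmx1 among transcription factors. In the membrane and cytoskeleton it was 6.51 for Slc16a12, 2.68 for Tmod1, 1.90 for Vim, 2.41 for Abi2, 1.23 for Rac1, 1.91 for Tubb6 and 1.86 for Map4, and it was -1.55 for Gja1 and -1.86 for Vcl. In adhesion it was 3.79 for Ctnnd2, 3.26 for Cdh2 and 2.53 for Arvcf, and -3.01 for Cd44. In signalling and the cycle it was 3.10 for Fgfr3, 3.09 for Etv5, 2.46 for E2f5, 1.94 for Ccnd1 and 1.15 for Ccnd3, and -4.03 for Bmp4. For Hspb1 it was -2.49.

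In 5 named genes 1 of the 4 body arrays stood apart, its gap to the nearest array being 0.902 of the range for Sox2, 0.899 for Jag1, 0.886 for Cryba2, 0.877 for Nefl and 0.858 for Tpm1. Chance flags about 1 in 20 such groups, and the 153 named genes tested gave these 5.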

How the results depend on the processing

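Against the body, 127 of 153 named genes were called, and 98 of these kept their direction and call in every setting run. Calls most often lost were those of Tmod2, Ccnd3, Ctnna1, Rac1, Cdkn1a and Cdkn1b. Genes higher than body numbered 1815 to 2463 and lower ones 3075 to 3883 with 1 lens or body array left out, and with the replicate block 2090 and 3282 (81 and 53 fibre genes). Within the low bacterial control set 81 fibre genes were higher and 62 lower, while the high set holds 1 E12.5 lens array and its counts are not given. In the replicate block setting, each block has its own term in the fit. That block ties all same-numbered arrays of a series, lens and body alike. With it 28 fibre genes were higher and 6 lower in E12.5 than E11.5 lens, and no count changed by over 1.5 times. With the tooth-series bodies as control 4358 genes were higher, and these arrays differ in their transcript end controls. From E11.5 to E12.5, fibre genes higher numbered 12 and lower 1 with only the arrays of the contrast, 14 were lower with the bacterial control block, and leaving out 1 array gave 17 to 34 higher and 3 to 12 lower. From E10.5 to E12.5 it gave 57 to 68 higher and 24 to 32 lower. Centring on the tested genes and leaving out E10.5, E11.5 or tooth-series arrays were chosen after seeing the data.

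Signs turned with the tooth-series bodies for Aqp1 (0.0911), Lmnb1 (0.19), Tpm1 (2.76), Tpm3 (1.00), Myl9 (1.82), Actb (1.57), Actg1 (0.36), Llgl1 (0.59), Hspb1 (0.31), Dct (-0.37), Emcn (2.18), Csf1r (-0.65), Hbb-y (0.41), Hba-x (4.05) and Des (0.58). With all 7 bodies they turned for Tpm1 (0.0868) and Hba-x (1.19), and with the mean of a gene's probe sets for Tpm3 (0.45) and Ctnna1 (0.0571). Only turns of genes called in the first fit or in the changed setting are listed. The cause was not tested.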

Other observations

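Outside the fibre lists and the crystallins, several genes stood far above the body, and they were chosen after their values were seen. Gje1, a connexin gene, was at 11.34, 11.89 and 11.96 in E12.5 lens and 2.58 to 3.02 in body. Aldh1a1, a retinaldehyde dehydrogenase, was at 13.20 in lens and 5.58 in body, and Nupr1, a small stress-response nuclear protein gene, was at 11.32 and 4.53. Map7, a microtubule-binding protein gene outside the lists, was at 11.44 in lens and 6.44 in body. It was at 11.45 at E11.5, so its level was already reached a day earlier.

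A second set of such genes rose within the last day. Pla2g7, a secreted phospholipase that cleaves platelet-activating factor, stood at 6.73 at E10.5, stayed near it at E11.5 (6.69) and reached 11.29 by E12.5, a rise of 4.60 ± 0.73 (SE), against 6.17 in body. Pip5kl1, a phosphatidylinositol phosphate kinase-like gene, rose by 2.27 ± 0.44 to 10.16, and Sowaha by 1.90 ± 0.28 to 9.49. Cela1, an elastase gene, rose by 1.71 ± 0.18 to 10.68, against 5.14 in body. Vit, an extracellular matrix protein gene, rose by 1.49 ± 0.35 to 11.73.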
